A study of Xenopus laevis with 4 samples.

Results

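Methylated DNA captured in both replicates far from any protein-coding gene was described in Xenopus laevis embryos before zygotic genome activation (ZGA). In MBD-seq, genomic DNA is sheared, and the pieces that bind to a protein with a methyl-CpG-binding domain (MBD) are sequenced. The 2 MBD capture samples and the 2 Input samples of uncaptured genomic DNA all came from whole wild-type (WT) embryos at the 256-cell stage, 4.5 h after fertilization, with 250 embryos pooled per replicate. Peaks had been called for each capture sample against its Input, so the Input samples, whose own data were not analysed here, entered through that call only, and a peak states that methylated DNA was captured above Input but not at what level. A gene desert was defined as sequence over 100 kb from any protein-coding gene of the RefSeq annotation of genome version 10.1, and the regions described are the replicate 1 peaks with their midpoint in a desert that shared 1 bp or more with a replicate 2 peak. They were thus selected on overlap between the replicates and on distance to genes, and neither property is a result here. There were 10408 such recurrent peaks in deserts. They made up 12.8% of the 81187 recurrent peaks on the 18 chromosomes, which in turn were 61.8% of all 131295 replicate 1 peaks there.

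In vertebrates, most CpGs outside regulatory elements carry methylation, while CpG-rich promoters are commonly free of it. A maintenance DNA methyltransferase copies that methylation at each cell division. Gene deserts are long stretches of the genome without coding sequence. Some of them flank genes for developmental transcription factors and hold distant enhancers, and others hold mainly repeats and neutral sequence. Xenopus laevis is an allotetraploid frog, in which each chromosome of the L subgenome has a homeologous chromosome of the S subgenome that descends from another parental species. A gene present on both carries the same symbol with the suffix L or S. Roles of genes given below are those known in vertebrates, for most genes from mammals.

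The deserts formed 1587 stretches that summed to 308.6 Mb, or 11.3% of the 2741 Mb on the chromosomes. Each is the inner part of a gap between genes of over 200 kb, except for 5 that reach a chromosome end. The median desert was 121.7 kb long, and 535 deserts were 200 kb or longer. Replicate 1 had 17645240 sequenced tags and 16410 desert peaks, and replicate 2 had 23909019 tags and 26893 desert peaks. The peak lists give no tag count per peak, so the depth behind a single peak is unknown. At the limit of the definition, 108 recurrent peaks lay within 1 kb inside it and 106 within 1 kb outside it. The nearest peak inside was at bases 138217394 to 138217894 of chromosome 2L, 100003 bp from a protein-coding gene. The nearest outside was at 203099935 to 203100562 of chromosome 1L, at 99993 bp.

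Recurrent peaks were denser in gene deserts than in the rest of the chromosomes. Deserts held 33.7 recurrent peaks per Mb, against 29.1 in the rest. Among all peaks of replicate 1 the densities were 53.2 per Mb in deserts and 47.2 in the rest, and among those of replicate 2 they were 87.2 and 80.5, so both replicates showed the same direction. To test this over chromosomes, each of the 9 homeologous pairs gave 1 value per kind of sequence. The mean was 33.7 ± 2.42 recurrent peaks per Mb in deserts and 29.3 ± 1.36 in the rest (SD over 9 pairs). Deserts were denser in 9 of 9 pairs, by 4.40 ± 1.96 per Mb (two-sided exact permutation test over the pairs, p = 0.00391, which is the lowest p that 9 pairs can give, adjusted p = 0.00977 over 5 tests). The difference ranged over the pairs from 2.15 per Mb in pair 2 to 7.35 in pair 5. Pairs are chromosomes of the same 2 libraries, so these p-values measure the spread between chromosomes and not between embryos. As a share of bases, recurrent peaks took up 2.34% of deserts and 1.91% of the rest.

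The comparison depended on what deserts were set against. When genes were left out of the rest, so that deserts were compared with other intergenic sequence only, the means were 33.7 recurrent peaks per Mb in deserts and 32.8 in intergenic sequence nearer to genes. That difference of 0.964 per Mb, with deserts higher in 6 of 9 pairs, did not pass the test (two-sided exact permutation test over pairs, p = 0.191). This alternative was chosen after the data had been seen.

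The profile along distance shows where the density changed. Inside protein-coding genes there were 25.9 recurrent peaks per Mb. Within 1 kb outside a gene there were 28.4, and from 1 to 5 kb there were 31.9. From 5 kb to 100 kb the classes held between 32.5 and 33.6 per Mb. In the deserts the density was 33.8 at 100 to 150 kb, 33.3 at 150 to 200 kb, 34.7 at 200 to 300 kb and 33.2 at 300 to 500 kb. The 5.72 Mb of sequence over 500 kb from any protein-coding gene held 179 recurrent peaks, at 31.3 per Mb. Most of the change in recurrent peaks thus lay between gene bodies and the first 5 kb around genes. Beyond 5 kb all classes held between 31.3 and 34.7 recurrent peaks per Mb. All peaks of replicate 1 ran from 42.7 per Mb inside genes to 54.3 at 200 to 300 kb, and those of replicate 2 had 73.2 inside genes and 88.7 at 200 to 300 kb. Replicate 2 had its highest density nearer to genes, with 90.2 at 5 to 10 kb. Over 500 kb from genes replicate 1 had 48.3 per Mb and replicate 2 had 79.4, in each the lowest class beyond 5 kb.

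**Figure D1:**
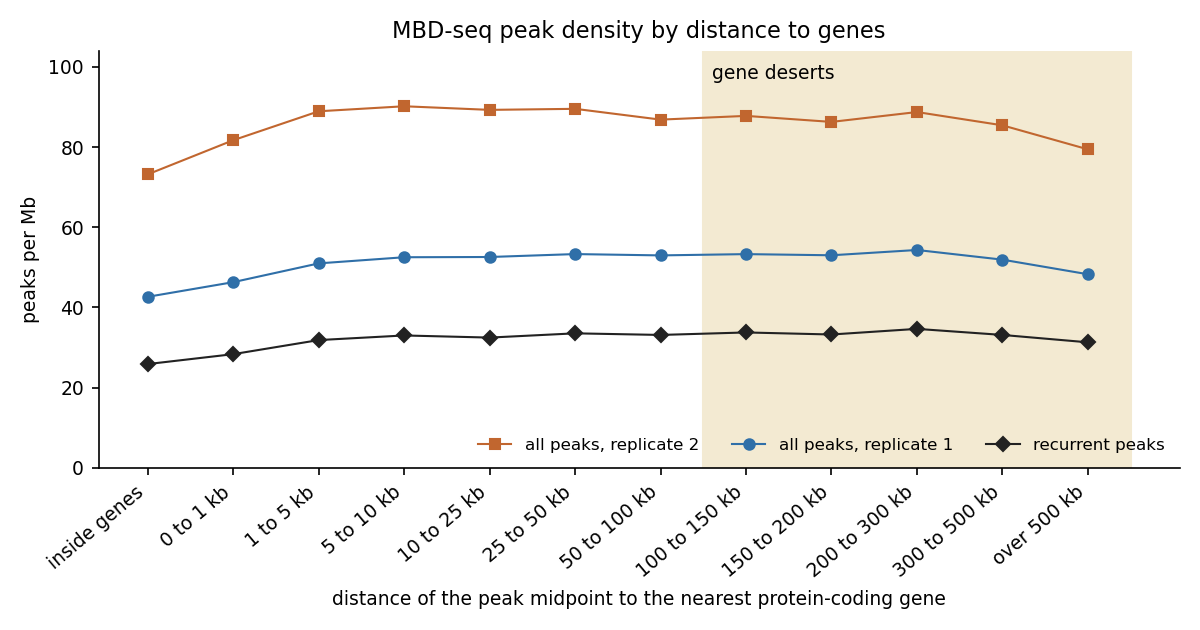
Peaks per Mb (y axis) against the distance of the peak midpoint to the nearest protein-coding gene (x axis, in classes), for all replicate 2 peaks, all replicate 1 peaks and recurrent peaks, with gene deserts shaded. Each line is lowest inside genes, and recurrent peaks stay between 31.3 and 34.7 per Mb in all classes of the deserts.

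The share of replicate 1 peaks that recurred in replicate 2 was 63.4% in deserts, beside 61.8% over all replicate 1 peaks on the chromosomes. Over the pairs the share was 63.4% ± 1.39 in deserts and 61.7% ± 0.518 in the rest (SD over 9 pairs). It was higher in deserts in 7 of 9 pairs, by 1.76 percentage points. Overlap between the replicates chose the peaks described, so this is given as a description with no test, and the share in deserts was close to that over all peaks. Pairs 1 and 3 went the other way, with 61.3% in deserts and 61.4% in the rest of pair 1, and 61.4% and 62.4% in pair 3. The difference was 0.823 points when peaks had to share at least 0.5 of the length of each, and 0.916 points against intergenic sequence only. Of the replicate 2 peaks in deserts, 38.4% overlapped a replicate 1 peak, against 35.9% in the rest.

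Most recurrent desert peaks were short, and a small number were very wide. The median width was 501 bp in deserts and in the rest, and 58.7% of desert peaks had exactly this width, the smallest that the window of 500 bp gives, against 60.5% in the rest. Peaks of 1 kb or more made up 11.2% in deserts and 8.79% in the rest. At 3 kb or more there were 58 peaks in deserts (0.557%) and 117 in the rest (0.165%). Without 2 deserts of chromosome 5S, described below, the share in deserts was 0.204%. The widest recurrent peak measured 12721 bp in deserts and 33662 bp in the rest. The overlapping replicate 2 peaks had a median width of 627 bp in both kinds of sequence. For the desert peaks they were wider in 41.0% of cases and of the same width in 37.4%.

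The mean width over pairs was 687 ± 39.8 bp in deserts and 656 ± 8.49 bp in the rest (SD over 9 pairs), and it was larger in deserts in 9 of 9 pairs (difference 31.1 bp, two-sided exact permutation test over pairs, p = 0.00391, adjusted p = 0.00977 over 5 tests). Pair 5 had the largest difference, at 130.2 bp. Without pair 5 the difference was 18.7 bp, in 8 of 8 pairs (exact test, p = 0.00781). The wide peaks of that pair lay in 2 deserts of chromosome 5S, which held 121 recurrent peaks and 37 of the 58 desert peaks of 3 kb or more. Without these 2 deserts the difference over pairs was 17.7 bp, and the mean of all other desert peaks was 673 bp. Against intergenic sequence only the difference was 15.7 bp and did not pass the test (exact, p = 0.254). The choice of peaks by overlap bears on width, since recurrent desert peaks had a mean of 687 bp and all replicate 1 desert peaks 642 bp. Among all replicate 1 peaks, chosen without overlap, deserts were wider by 23.9 bp, in 8 of 9 pairs. Among all replicate 2 peaks they were wider by 19.2 bp, in 9 of 9 pairs.

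The 2 deserts of 5S were also those with the most recurrent peaks per Mb among deserts of at least 200 kb. The first lies between LOC108704892 and LOC121394226, genes that carry no name, at bases 54579096 to 55256059. It held 77 recurrent peaks in 677 kb, or 113.7 per Mb, which covered 28.6% of its bases. Replicate 1 had 108 peaks there and replicate 2 had 116. The wide peaks there were mostly those of replicate 1, which had 25 peaks of 3 kb or more, a median width of 1250 bp and a widest peak of 10596 bp. Replicate 2 had 6 peaks of 3 kb or more, a median width of 804.5 bp and a widest peak of 12889 bp.

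The second runs at bases 69246833 to 69738373 between des.2.S, a gene for the muscle intermediate filament desmin, and pnisr.S, a gene for a serine- and arginine-rich nuclear protein. It held 44 recurrent peaks in 491.5 kb, or 89.5 per Mb, with 70 peaks in replicate 1 and 72 in replicate 2, and 22.7% of its bases lay in recurrent peaks. The widest recurrent peak of any desert was there, at bases 69388092 to 69400812 of 5S. It measured 12721 bp in replicate 1 and overlapped 2 replicate 2 peaks, of which the wider measured 2830 bp. Of all peaks in this desert, 16 in replicate 1 and 9 in replicate 2 were 3 kb or wider. The same 2 genes are neighbours on 5L, where the sequence between them is 140.2 kb, too short to hold a desert, against 691.5 kb on 5S. Between them 5L had 1 peak in replicate 1, 10 in replicate 2 and none that recurred. The whole gap on 5S had 94, 103 and 61. In peaks per Mb, replicates 1 and 2 had 7.13 and 71.3 on 5L, and 136 and 149 on 5S. The 5S desert was chosen for its many recurrent peaks per Mb, so nothing is read from that difference. Repeats and copy number were not analysed here.

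The next 3 deserts by density had narrow peaks. The desert between ruvbl1.L, which encodes an ATPase of chromatin remodelling complexes, and gata2.L, which encodes a zinc-finger transcription factor of blood formation, had 23 recurrent peaks in 283.9 kb (81.0 per Mb), of which the widest was 1632 bp. Between plscr2.S, a phospholipid scramblase gene, and zic4.S, a zinc-finger transcription factor gene of the neural plate and hindbrain, 17 of 17 replicate 1 peaks recurred in 240.3 kb (70.8 per Mb). Over all replicate 1 peaks 61.8% recurred. This desert was chosen for its many recurrent peaks per Mb, so nothing is read from the 17 of 17. Between lrriq3.S and LOC108715513 there were 15 recurrent peaks in 215.8 kb (69.5 per Mb). In these 3 deserts between 4.18% and 5.86% of bases lay in recurrent peaks, far less than in the 2 deserts of 5S.

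Over the 535 deserts of at least 200 kb, the median density was 33.0 recurrent peaks per Mb. The tenth and ninetieth percentiles were 20.1 and 50.9, and all 535 held at least 1 recurrent peak. Across these deserts, Spearman's rho between the densities of all peaks in replicate 1 and in replicate 2 was 0.71, and it was 0.77 across the 156 deserts of at least 500 kb. Such correlations are descriptions, since the deserts share the same 2 libraries, the same calling and any bias by base composition. Of all 1587 deserts, 279 (17.6%) held no recurrent peak. They were short, with 236 of them under 50 kb, and the longest was the 164.4 kb between mrpl46.L and LOC108711464 on 3L, where replicate 1 had 3 peaks and replicate 2 had 7 that did not overlap. mrpl46 encodes a mitochondrial ribosomal protein and is named here after its values were seen.

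**Figure D2:**
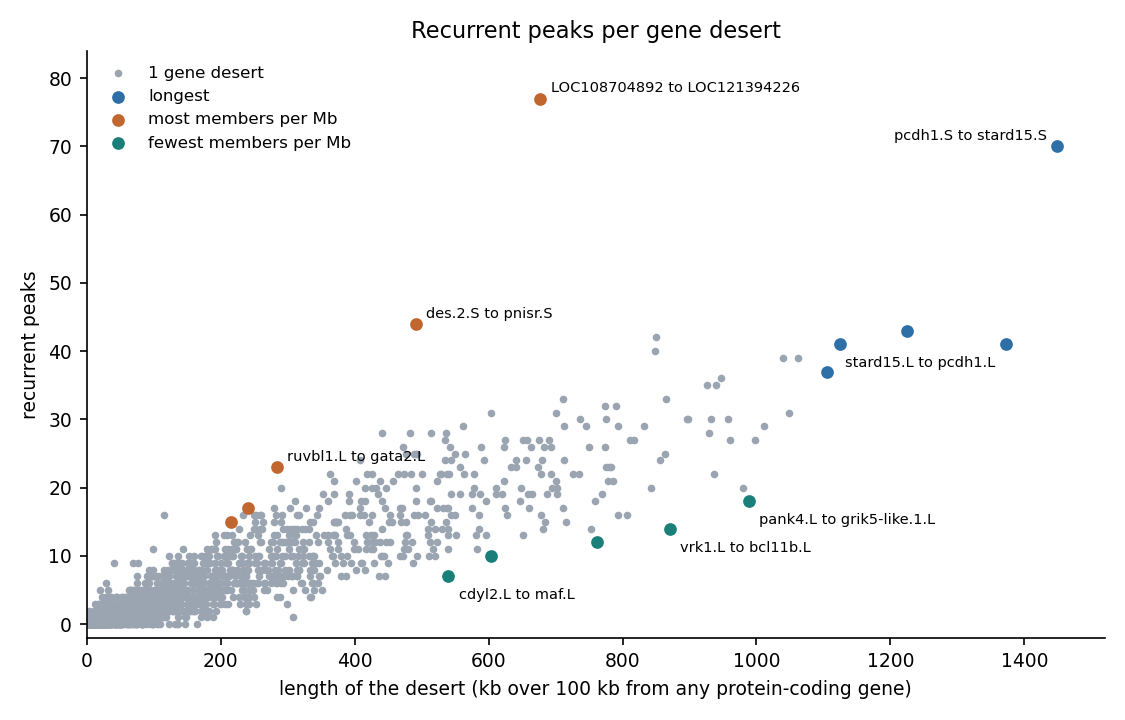
Number of recurrent peaks (y axis) against the length of the desert in kb (x axis), with 1 point for each of the 1587 gene deserts. The count followed length in most deserts, and the 2 deserts of 5S, with 77 and 44 recurrent peaks, stand above others of their length.

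The 5 longest deserts held between 37 and 70 recurrent peaks each. The longest was between pcdh1.S, which encodes protocadherin 1, a cell adhesion molecule, and stard15.S, of the family of lipid-binding START domain proteins, at bases 117381176 to 118830292 of chromosome 3S. Its 1449 kb held 70 recurrent peaks (48.3 per Mb), among 99 peaks of replicate 1 and 165 of replicate 2. The recurrent peaks farthest from any protein-coding gene were in this desert, with the farthest at 118093531 to 118094031, 812.6 kb from such a gene. The second longest was its homeologous desert on 3L, of 1372 kb. The third, of 1225 kb on 1L, lies beside nkx6-1.L, a homeodomain factor of ventral neural tube and pancreas, and had 43 recurrent peaks (35.1 per Mb). The fourth, of 1125 kb on 1S beside pik3c3.S, a lipid kinase of autophagy and endosomal traffic, had 41 (36.4 per Mb), and the fifth, of 1105 kb on 1S between LOC108706622 and LOC108704291, had 37 (33.5 per Mb). Apart from that of 3S, the longest deserts had densities close to the median of deserts of 200 kb or more.

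Of the 5 deserts of at least 500 kb with the fewest recurrent peaks per Mb, 3 bordered a gene of a developmental transcription factor, as did 25 of all 156 deserts of that length (16.0%). These 5 were chosen for their low density, so nothing is read from that count. The lowest density was between cdyl2.L, a chromodomain protein gene, and maf.L, a leucine-zipper transcription factor gene active in lens and T cells, with 7 recurrent peaks in 539.8 kb (12.97 per Mb), among 13 peaks of replicate 1 and 37 of replicate 2. The desert between vrk1.L, a nuclear kinase gene, and bcl11b.L, a zinc-finger factor gene of T cells and neurons, had 14 in 870.3 kb (16.1 per Mb). That between e2f3.L, a cell cycle factor gene, and sox4.L, an HMG-box factor gene of neural and lymphoid progenitors, had 10 in 604.2 kb (16.6 per Mb). No peak of 1 kb or more recurred in these 3 deserts, where the widest measured 892, 634 and 646 bp.

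The other sparse deserts held long stretches without recurrent peaks. Between LOC108709437 and LOC121400771 on 2S, 12 recurrent peaks lay in 761.8 kb (15.8 per Mb), among 37 peaks of replicate 1 and 29 of replicate 2. The 37 peaks of replicate 1 make 48.6 per Mb, against 53.2 for replicate 1 over all deserts. The 29 peaks of replicate 2, the deeper library, make 38.1 per Mb, against 87.2 for replicate 2 over all deserts. Recurrent peaks covered 2.25% of the bases of this desert, against 2.34% over all deserts. Of the 37 peaks 12 recurred, beside 61.8% of all replicate 1 peaks. This desert was chosen for its few recurrent peaks per Mb, so nothing is read from that share. In this desert 2 neighbouring recurrent peaks were 506.4 kb apart, the largest spacing in any desert. In that stretch replicate 1 had 4 peaks and replicate 2 had 8. Between pank4.L, of the pantothenate kinase family, and grik5-like.1.L, named after a kainate-type glutamate receptor subunit, 18 recurrent peaks lay in 988.8 kb (18.2 per Mb), with a stretch of 338.8 kb in which replicate 1 had no peak and replicate 2 had 2. The next largest spacing, of 206.5 kb, was on 1L between pcdh18.L and pcdh10.L, protocadherin genes named here after their values were seen, with 2 peaks in replicate 1 and 7 in replicate 2. Gaps of the assembly and repeats that hinder unique read placement were not analysed here, so a stretch without recurrent peaks is not thereby unmethylated.

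Within a desert, neighbouring recurrent peaks were a median of 16.8 kb apart, against 21.6 kb in the rest. The quartiles were 6.83 and 34.5 kb in deserts and 8.53 and 45.6 kb in the rest. Of 9100 spacings in deserts, 18.7% were under 5 kb and 2.46% over 100 kb, against 15.2% and 5.77% in the rest. Spacings were counted only between peaks of the same desert, and the median desert was 121.7 kb long. The ends of deserts thus leave long spacings out, which in part fixes the lower desert values. A spacing over 100 kb can only fall in a desert longer than that. Spacing was not compared with intergenic sequence only. The distance under which peaks had been joined was 1000 bp. By chromosome the median spacing in deserts ran between 12.8 kb on 7S and 20.6 kb on 8L. With replicate 2 peaks in place of replicate 1 peaks the medians were 17.0 kb in deserts and 21.8 kb in the rest.

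In deserts, recurrent peaks were less dense on L than on S chromosomes. L chromosomes had 797 deserts of 153.5 Mb in all, with 4934 recurrent peaks, and S chromosomes had 790 deserts of 155.1 Mb, with 5474. Deserts thus made up 10.3% of the L sequence and 12.4% of the S sequence. The mean density was 32.0 ± 2.56 per Mb on L and 35.4 ± 3.21 on S (SD over 9 chromosomes each). The difference of L minus S was -3.46 ± 3.20 per Mb (SD over 9 pairs), with L lower in 8 of 9 pairs (two-sided exact permutation test over pairs, p = 0.0117, adjusted p = 0.0195 over 5 tests). Both replicates showed the direction, with 50.4 peaks per Mb in L deserts and 55.9 in S deserts in replicate 1, and 83.6 and 90.7 in replicate 2.

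The pairs differed in size. In pair 8 the deserts had 28.2 recurrent peaks per Mb on 8L and 37.5 on 8S, the largest difference at -9.27. In pair 1 they had 31.7 on 1L and 32.0 on 1S, and pair 4 went the other way, with 33.9 on 4L and 32.2 on 4S. The highest density in deserts of any chromosome was 40.3 per Mb on 5S. Without its 2 densest deserts, the mean difference over the 9 pairs was -3.08 per Mb (exact test, p = 0.0117). The difference between subgenomes was not shown to be particular to deserts. In the rest of the chromosomes L minus S was -3.12 per Mb, and the difference between the L minus S values of deserts and of the rest was -0.341 per Mb (two-sided exact permutation test over pairs, p = 0.629, adjusted p = 0.629 over 5 tests). Over the pairs that value ranged between -2.58 and 4.06.

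**Figure D3:**
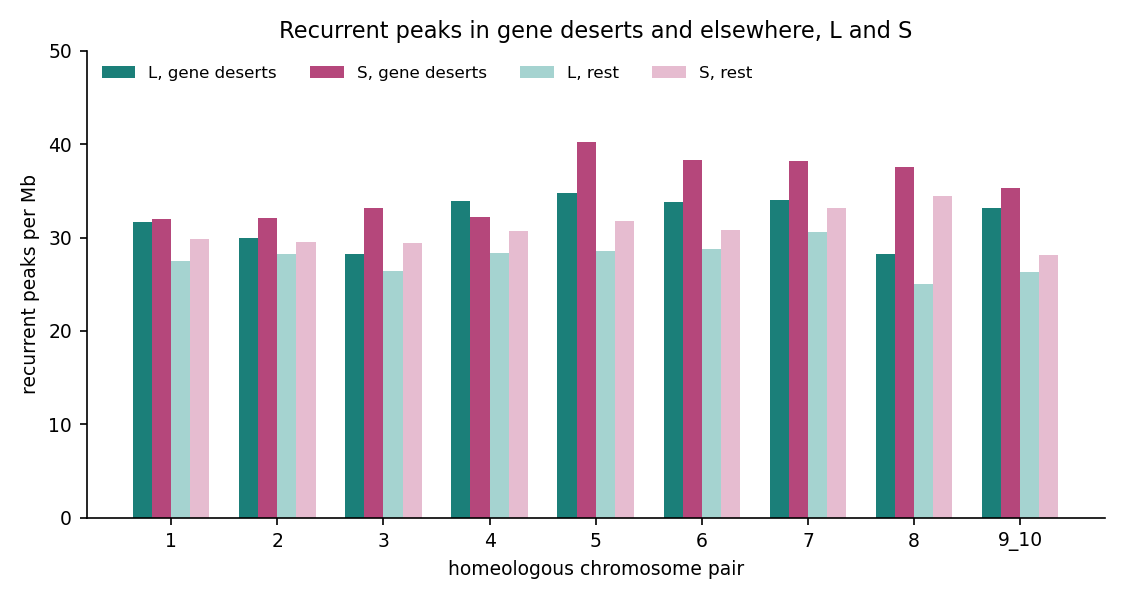
Recurrent peaks per Mb (y axis, bars start at 0) for each homeologous chromosome pair (x axis), on L in deserts, on S in deserts, on L in the rest and on S in the rest. In deserts L lies below S in 8 of 9 pairs, with the largest gap in pair 8 and the opposite order in pair 4.

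Deserts that have the same 2 genes at their borders on L and S can be compared directly, and there were 142 such pairs. On L they held 1041 recurrent peaks in 34.5 Mb (30.2 per Mb), and on S 1112 in 32.1 Mb (34.7 per Mb). L was denser in 55 pairs, S in 80, and 7 were tied. The lengths of the paired deserts followed each other (Spearman's rho 0.95, n = 142), and L was the longer in 90 pairs. Their densities did so weakly (rho 0.21), and among the 54 pairs with both deserts at 200 kb or more rho was -0.05. A pair was counted only where the gap between the same genes was a desert on both L and S, which in part fixes the likeness in length, and most of the 797 L deserts had no such pair. These values are descriptions over deserts of the same 2 libraries.

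The pair with the largest summed length was that between pcdh1 and stard15. On 3L it held 41 recurrent peaks (29.9 per Mb) and on 3S 70 (48.3 per Mb). Replicate 1 had 68 peaks on 3L and 99 on 3S, and replicate 2 had 117 and 165, so S was the higher in each replicate. On the other side of pcdh1, towards matr3, which encodes a nuclear matrix RNA-binding protein, the difference had the same direction, with 22 recurrent peaks in 936.5 kb on 3L (23.5 per Mb) and 40 in 849.1 kb on 3S (47.1 per Mb).

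The other 3 of the 5 longest pairs did not share a difference of that direction and size. Between adamts18, a secreted metalloprotease gene, and cdh8, a neuronal cadherin gene, there were 27 on 4L and 29 on 4S, in 998.1 and 1012 kb. S was only slightly the denser there (27.05 per Mb on 4L and 28.65 on 4S). Between mctp2, which encodes a calcium-binding membrane protein, and nr2f2, an orphan nuclear receptor of vein and heart development, there were 27 on 3L and 23 on 3S, in 811.7 and 780.3 kb. Between adm, the gene of the vasodilator peptide adrenomedullin, and lrrc4c, a synaptic adhesion gene, there were 30 on 4L and 23 on 4S, in 735.9 and 776.1 kb. L was the denser between mctp2 and nr2f2 (33.26 per Mb, against 29.48 on S) and between adm and lrrc4c (40.77, against 29.64). The large difference around pcdh1 was thus not general among the longest pairs.

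**Figure D4:**
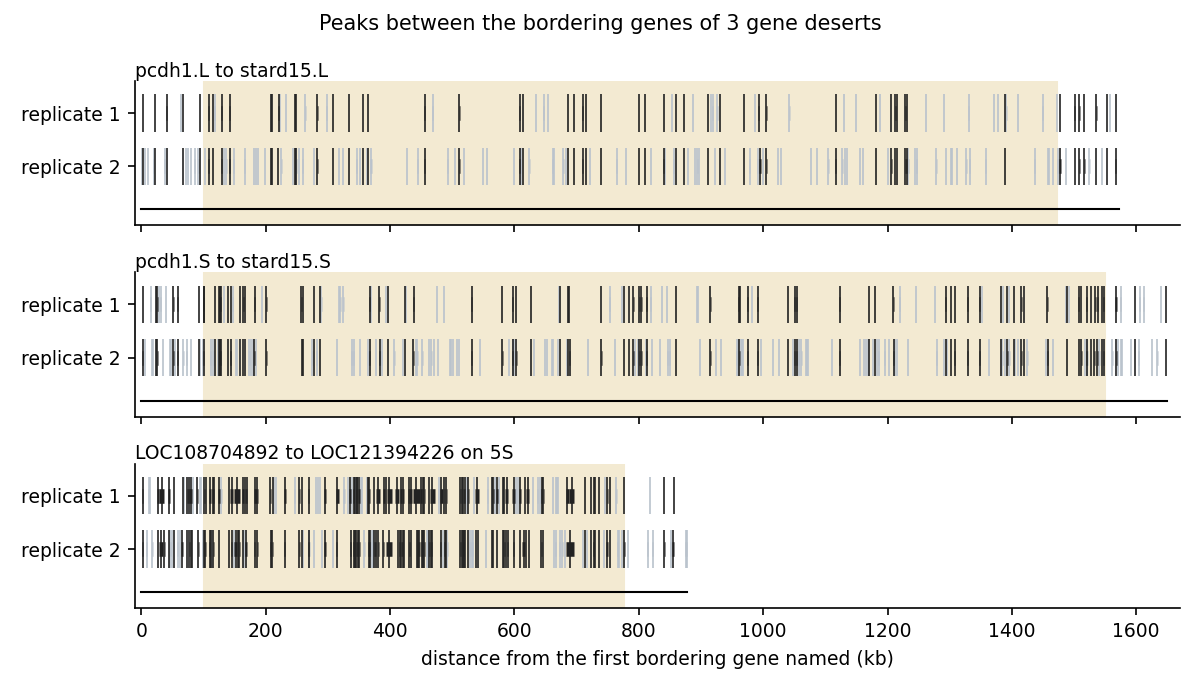
Positions of peaks between the bordering genes of 3 gene deserts, in kb from the first gene named (x axis), in replicate 1 and replicate 2 (rows), with recurrent peaks in black, other peaks in grey, thick marks drawn to peak width and the desert shaded. The desert beside pcdh1 carries 41 recurrent replicate 1 peaks on L and 70 on S, and the 5S desert, of 677 kb in a gap of 877 kb, carries 77, with 25 replicate 1 peaks and 6 replicate 2 peaks of 3 kb or more.

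The genes at the borders of the deserts were counted next, by lists made from gene symbols. Of 34461 protein-coding genes, 2828 (8.21%) bordered a desert, 341 of them on both sides. In the list of cell adhesion and axon guidance genes, such as cadherins, protocadherins, semaphorins and ephrins, 110 of 248 (44.4%) did. Developmental transcription factors followed with 189 of 653 (28.9%). Among signalling ligands 39 of 194 (20.1%) bordered a desert, and among ion channels and neurotransmitter receptors 66 of 333 (19.8%). For genes named znf the count was 19 of 193 (9.85%). Housekeeping families such as ribosomal, proteasome and respiratory chain genes had 31 of 614 (5.05%), and olfactory and vomeronasal receptors had 0 of 19. Of genes with a LOC symbol, 886 of 12049 (7.35%) bordered a desert. At the limit of 100 kb, the first 5 lists were thus at over 8.21% and the housekeeping families under it. The znf genes, at 9.85%, were close to the share of all genes. With deserts set at 200 kb from genes, signalling ligands fell under the share of all genes (2.06% against 2.905%). Bordering genes were longer, with a median span of 34.4 kb, against 16.5 kb for other genes, and which genes border deserts is set by the annotation and not by methylation.

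The deserts of a list differed less in density than in number. Those beside adhesion and axon guidance genes held 1802 recurrent peaks in 57.3 Mb (31.5 per Mb), and those beside developmental transcription factors 1488 in 46.6 Mb (31.9 per Mb). Signalling ligands had 150 in 4.01 Mb (37.4 per Mb), and channels and receptors had 468 in 12.97 Mb (36.1 per Mb). The znf genes had 165 in 5.24 Mb (31.5 per Mb), and housekeeping families 150 in 5.41 Mb (27.7 per Mb). All deserts had 33.7 per Mb. The highest and the lowest of these densities thus came from lists with little desert sequence. The deserts beside adhesion genes were long, with a median of 446.2 kb for the longest desert of a gene, against 128.6 kb over all bordering genes.

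Among the genes of each list with the longest deserts, several had a desert on both subgenomes. For the transcription factor gene bcl11b, the desert on 8L towards vrk1.L had 14 recurrent peaks in 870.3 kb (16.1 per Mb). That on 8S, which ends at LOC108699806, had 42 in 850.5 kb (49.4 per Mb). The 8L desert is also among those named above for their few recurrent peaks per Mb, so nothing is read from that difference. Of the ligand genes, wnt9a, of the Wnt family, had 12 in 399.4 kb on 6L and 16 in 414.8 kb on 6S, and tgfb2.S, a TGF-beta ligand gene, had 12 in 236.2 kb (50.8 per Mb). The third adhesion gene after pcdh1 on S and L was pcdh17.S, with 31 in 1048 kb (29.6 per Mb).

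Of the channel genes, kcnt2, for a sodium-activated potassium channel, had 26 in 773.6 kb on 4L and 21 in 700 kb on 4S. For znf703, a transcriptional repressor gene, the counts were 33 in 865 kb on 3L and 27 in 817.6 kb on 3S, and znf507.S had 10 in 438.8 kb (22.8 per Mb). The housekeeping genes with the longest deserts were cox6c.S, a subunit gene of cytochrome c oxidase, with 22 in 529.3 kb (41.6 per Mb), mrpl39.L, a mitochondrial ribosomal protein gene, with 12 in 512.9 kb (23.4 per Mb), and psmd7.S, a proteasome subunit gene, with 6 in 346.1 kb (17.3 per Mb). The density of the single deserts named thus varied within each list. It was not compared with the densities of whole lists, which pool many deserts.

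The flank between a bordering gene and its desert was set beside the desert itself. These flank peaks lie within 100 kb of a gene and are not among the 10408. In the first 10 kb beside developmental transcription factor genes, on the desert side, there were 28 recurrent peaks in 2260 kb (12.4 per Mb), against 29.2 per Mb beside all bordering genes. Replicate 1 had 23.9 peaks per Mb there, against 46.4 beside all bordering genes, and replicate 2 had 45.1, against 82.7. Within 1 kb there were 2 recurrent peaks on 226 gene sides (8.85 per Mb, against 30.0), from 1 to 5 kb 10 (11.1 per Mb, against 28.5) and from 5 to 10 kb 16 (14.2 per Mb, against 29.5). From 10 to 50 kb the density beside these genes was 32.0 per Mb, close to the 32.8 of all bordering genes. From 50 to 100 kb it was 30.4 per Mb, against 33.3. The difference from all bordering genes was thus largest, among the distances counted, in the first 10 kb, where it was seen in both replicates.

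The other lists were counted in the same way. Adhesion and axon guidance genes had 44 in the first 10 kb (28.0 per Mb), channels and receptors 19 (25 per Mb), signalling ligands 17 (38.6 per Mb), housekeeping families 9 (28.1 per Mb) and znf genes 3 (12.5 per Mb). For adhesion genes the first 1 kb held 1 recurrent peak on 157 sides (6.37 per Mb), where replicate 1 had 6.37 peaks per Mb and replicate 2 had 82.8, so the replicates differed. Over all protein-coding genes, a recurrent peak lay within 1 kb of a gene end for 323 of 2828 bordering genes (11.4%) and for 3532 of 31633 other genes (11.2%). The annotation used gave no strand, so the end with the promoter was not known.

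**Figure D5:**
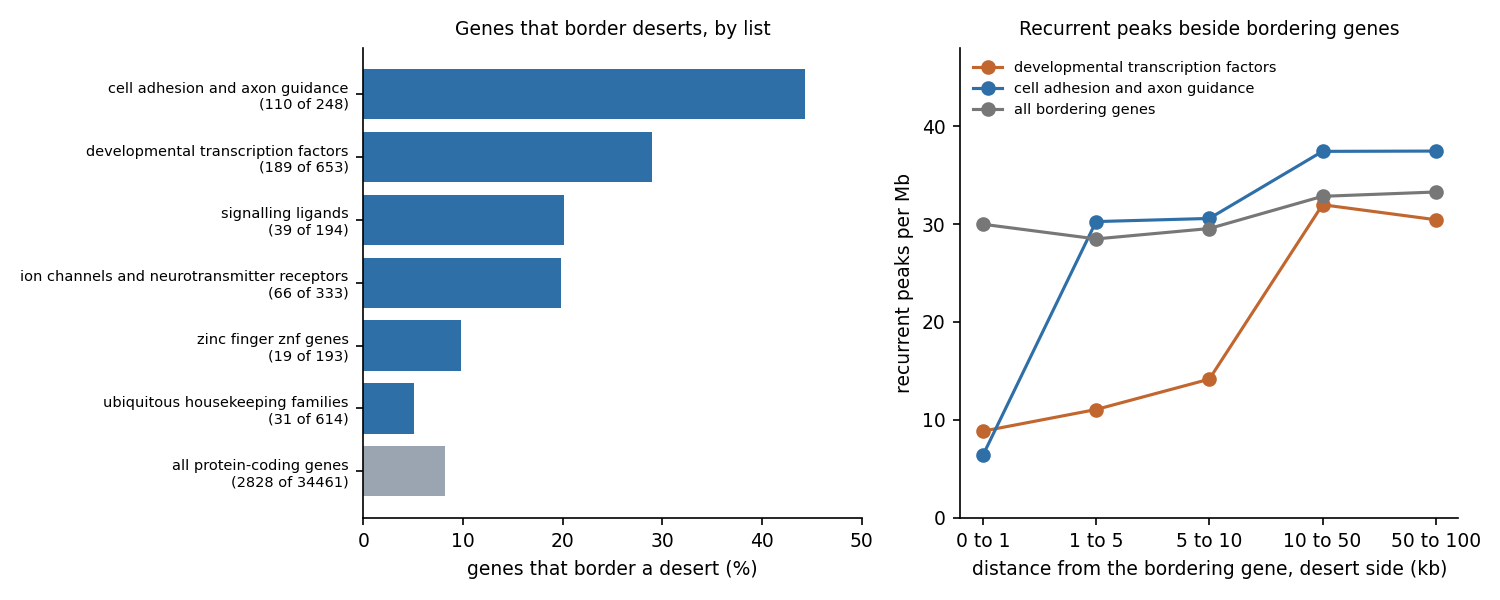
Left, the share of the genes of each list that border a desert (x axis, percent, bars start at 0), with counts in brackets. Right, recurrent peaks per Mb (y axis) by distance from the bordering gene towards the desert (x axis, kb), for 2 lists and for all bordering genes, where developmental transcription factors have 8.85, 11.1 and 14.2 per Mb in the first 3 classes and 32.0 from 10 to 50 kb.

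Deserts contain genes that encode no protein. Long non-coding RNA genes, pseudogenes and small RNA genes took up 4.81% of desert sequence and held 449 recurrent peaks by midpoint (4.31%), at 30.3 per Mb, against 33.9 in desert sequence without any annotated gene. Of all 748 such genes in deserts, 153 (20.45%) overlapped a recurrent peak. Among 314 long non-coding RNA genes 89 did (28.3%), and among 169 pseudogenes 47 did (27.8%). Of 146 tRNA genes 11 overlapped one (7.53%), whereas none of 61 rRNA genes did. Longer genes have more sequence in which to overlap a peak, so these shares are not compared between classes. By midpoint, long non-coding RNA genes held 27.7 recurrent peaks per Mb and pseudogenes 33.8. The tRNA and rRNA genes covered 10.8 and 24.5 kb in all, too little sequence at this peak density for a count of 0 to be read as absence.

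Pseudogenes took up less of the deserts on L than on S, with 106 pseudogenes over 1165 kb (0.759%) on L and 63 over 5700 kb (3.68%) on S. They held 37 recurrent peaks on L and 195 on S, at similar densities of 31.8 and 34.2 per Mb. The one with the most was LOC108703128, which spans 533.2 kb of 9_10S between mrm2.S and elfn1.S and held 22. These 3 were named after their values were seen. When all annotated genes, these included, were used to bound the deserts, recurrent peaks were still less dense on L than on S, by -3.61 per Mb (two-sided exact permutation test over pairs, p = 0.0195).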

How the data were processed

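MBD-seq peaks of the 2 MBD capture samples were used. Per the labels and methods, the authors mapped read pairs with bowtie (listed as Bowtie 4.2) to genome version 10.1, kept proper pairs and called peaks with HOMER 4.11 per replicate against its Input. By the deposited headers, 500 bp windows were joined within 1000 bp and had to hold 4-fold more tags than Input (p-value 0.0001), with a Poisson p-value of 0.001 and at least 12 tags in replicate 1 and 15 in replicate 2. The deposited score was 1 for all peaks and was not used. The deposited coordinates and the listing order of the peaks were the other values read. What that order means is not stated with the data, and results given here use it only for the first part of each list.

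Gene positions, without strand, were those of RefSeq for that version. Distances ran from peak midpoints, and 1 bp counted as overlap. The 9 homeologous pairs, each the mean of L and S, were compared by exact paired permutation tests (512 sign flips, two-sided), and the 5 p-values were adjusted by Benjamini-Hochberg. That of the recurring share, a property used to choose the peaks, counts among the 5 and is not reported. Intervals and depth per peak cannot be given. Functions were tested on simulated lists. Python 3.11.15, numpy 2.4.6 and pandas 2.3.3 were used. Named genes border the 5 longest deserts, the 5 densest of at least 200 kb, the 5 sparsest of at least 500 kb, the 5 longest homeologous pairs and, per list, the 3 longest deserts. Lists were symbol stems. Members, lists and rules were chosen with earlier results of these data known. No sequence is shown because no genome sequence was used here.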

Additional observations from a re-analysis of the deposited data

How the results depend on the processing

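The density, width and L minus S differences of deserts passed the test at an unadjusted p of 0.05 and kept their direction with deserts set at 50 kb or 200 kb from genes, with all genes as bounds, with a reciprocal overlap of 0.5, with replicate 2 rows, with the first part of each list in listing order, without the terminal 2 Mb of chromosomes and without pair 5 or pair 8 (the pairs were left out after the data had been seen). In the first part of each list, which holds 49.4% of replicate 1 and 49.2% of replicate 2 peaks, the density difference was 2.13 per Mb, that of width 59.9 bp and L minus S -1.80 per Mb, with L lower in 6 of 9 pairs instead of 8 (exact permutation test, p = 0.0469, adjusted p = 0.0586 over 5 tests). The reciprocal overlap gave a difference of 0.823 points in the recurring share, which is a description only, and a median spacing of 20.9 kb. The median width differed by 0 bp between deserts and the rest. Against intergenic sequence only, differences of 0.964 per Mb (p = 0.191) and 15.7 bp (p = 0.254) did not pass, both by the exact permutation test, and that of the recurring share was 0.916 points. The cause of these changes was not tested, beyond the lower density inside genes that the intergenic comparison leaves out by construction.

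With all peaks of a single replicate, the density difference was 5.64 per Mb in replicate 1 and 5.78 in replicate 2, that of width 23.9 and 19.2 bp, and L minus S -6.04 and -7.73. The difference between the L minus S values of deserts and of the rest passed the test in no setting, and it changed sign with the reciprocal overlap (0.265), with replicate 2 alone (0.139, against -1.08 with replicate 1 alone) and without the 2 densest deserts of 5S (0.0371), beside -0.341. At 50 kb 5893 genes bordered a desert and at 200 kb 1001, since the limit sets how many gaps qualify. At 200 kb signalling ligands were under the share of all protein-coding genes, at 2.06% against 2.905%. Adhesion and axon guidance genes (33.5%), developmental transcription factors (12.2%), channels and receptors (5.71%) and znf genes (4.66%, only 9 genes) stayed over it. Housekeeping families (1.95%) stayed under it. Leaving out assembly gaps was not run, as no genome sequence was at hand. No paired analysis was possible because no file of the Input samples, which share the replicate numbers, was analysed here. With 2 replicates and no tag counts per peak, an absent peak can be a matter of depth, and replicate 2, the deeper library, had more peaks in each class of distance.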
